A study of Mus musculus with 50 samples.

Results

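The genes described are the mouse genes for the pore-forming alpha1 subunits of voltage-gated calcium channels in brain, Cacna1a, Cacna1b, Cacna1c, Cacna1d, Cacna1e, Cacna1g, Cacna1h and Cacna1i. They were chosen by name, as 8 of the 55487 genes in the count tables. All 8 passed the filter on low counts and are among the 16330 protein-coding genes tested, with 385 to 12222 reads in any library. Each alpha1 subunit is 1 large protein that forms the pore and senses voltage, so the alpha1 gene sets the current type of a channel. The Cav1 or L-type subunits (Cacna1c, Cacna1d) sit mainly on cell bodies and dendrites and couple calcium entry to transcription. The Cav2 subunits (Cacna1a, P/Q-type; Cacna1b, N-type; Cacna1e, R-type) trigger transmitter release at terminals. The Cav3 or T-type subunits (Cacna1g, Cacna1h, Cacna1i) open near the resting potential and shape burst firing.

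RNA of frontal cortex was sequenced from 50 mice, described in the methods as male, 1 library each, to compare heterozygous Setd1a+/- mice with wild-type mice along development. Setd1a encodes a histone methyltransferase. There were 5 mice of each genotype at embryonic days 14 and 18 (E14, E18) and postnatal days 7, 35 and 70 (P7, P35, P70). The labels name the strain C57BL/6NTac for every library. The study's methods describe a mixed C57BL/6NTac and C57BL/6J background, a loss-of-function allele (tm1d), and crosses of heterozygous males with wild-type females. Every cell of a Setd1a+/- mouse carries the allele, and a change in cortex need not arise in cortical cells. Before birth, frontal brain regions were taken, and after birth frontal cortex, so age and dissection cannot be told apart in a comparison across birth. The libraries held 35507165 to 43907318 counts (median 38626998).

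The transcript of Setd1a itself was compared first, in CPM (counts scaled to library size only). It read 126 to 145 in Setd1a+/- and 118 to 133.4 in wild-type mice at E14, 97.9 to 112 and 88.8 to 98.4 at E18, and 72.0 to 80.8 and 66.5 to 79.3 at P7. At P35 the ranges were 79.98 to 83.3 and 74.2 to 82.4, and at P70 69.2 to 88.5 and 74.3 to 84.3. The median was higher in Setd1a+/- mice from E14 to P35, and lower at P70 (73.3 against 75.1). The counts cover all exons of the gene and do not separate transcripts of the 2 alleles, so they do not check the genotype labels. The study states, from earlier work, that Setd1a protein was reduced in the cortex of heterozygous mice. These counts do not measure protein.

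Levels are given as FPKM, counts scaled to library size and divided by the exonic length of the gene. Defining markers of cortical neurons were present at every age. The 7 excitatory neuron markers summed to 452 ± 43.1 FPKM at E14 and 828 ± 59.8 at P70 (SD, n = 10), with Neurod6 and Camk2a as the most abundant gene. Camk2a made up 404 FPKM of the sum at P70, and from E14 to P70 2 of the 7 were called higher and 5 lower (median log2 -1.26), where 44.70% of all tested genes were called higher and 45.10% lower. The 7 progenitor markers fell from 313 ± 39.2 to 37.4 ± 2.55 FPKM, and 7 of 7 were called lower. The 7 GABAergic markers summed to 205.5 ± 47.8 and 455 ± 30.3 FPKM (6 called higher, 1 lower) and the 6 oligodendrocyte markers to 24.9 ± 2.34 and 667 ± 51.1 (6 higher). Markers of tissue next to the cortex varied among libraries of an age. The 4 choroid plexus markers, led by Ttr, summed to 0.166 to 373 FPKM at E14, and the 6 striatum markers, led by Ppp1r1b, to 94.0 to 378 at P70. In bulk tissue, fewer cells of a type and less RNA per cell cannot be told apart, and the cell mixture changed along with the ages compared.

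A set of 3 libraries stood apart. Wild-type replicate 5 at E14 held 60159 reads of the X-inactivation transcript Xist and 0 of Y-linked genes, while in replicate 2 of the E18 wild-type mice these were 55644 and 11. The other 48 libraries held at most 27 Xist reads and at least 4711 Y-linked reads. By these reads the 2 libraries were female, though the methods describe males, and both were wild-type. Sex was thus not balanced between the genotypes at E14 and E18 in the fits with all libraries. At P7, wild-type replicate 2 held markers of other brain regions or tissue. Its 4 choroid plexus markers summed to 508 FPKM, against 0.637 to 1.69 in the other 9 libraries of that age, its 6 hindbrain Hox genes to 2.57 (the most abundant being Hoxb3), and its 6 oligodendrocyte markers to 249.7 against 42.3 to 51.9. Its pan-neuronal markers summed to 974.8 FPKM, and those of the other 4 wild-type libraries to 1398 or more. All 8 alpha1 genes were at their lowest in this library among the wild-type mice of P7, and all 8 were likewise lowest in wild-type replicate 5 at E14. Wild-type replicate 2 at E18 was the lowest of its group for 3 of the 8. These 3 were set apart from earlier results of these data, with no numeric rule. Other libraries also stood out in a marker list: Setd1a+/- replicate 2 at E14 in endothelial markers (179 FPKM against at most 57.0) and wild-type replicates 3 and 4 at E18 in choroid plexus markers (189.8 and 152 against at most 5.80). An alternative chosen after seeing the data leaves out all 6.

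Among the L-type genes, Cacna1c encodes the pore of the most widespread L-type channel of brain and heart. Its FPKM was 3.50 ± 0.807 at E14, 5.43 ± 0.475 at E18, 5.65 ± 0.798 at P7, and then 5.04 ± 0.253 (P35) and 4.67 ± 0.353 (P70) (SD, n = 10 at each age, both genotypes together). Cacna1d, whose channel opens at more negative voltages, stood at 2.96 ± 0.651 at E14, 4.78 ± 0.806 at E18, 6.02 ± 0.871 at P7, and then 4.99 ± 0.430 (P35) and 4.53 ± 0.254 (P70). Both were lowest at E14. In the 40 libraries of the later ages Cacna1c lay between 3.90 and 6.95 FPKM and Cacna1d between 3.77 and 7.003, and for both the libraries overlapped between each pair of successive ages.

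The Cav2 genes were more abundant per base. The P/Q-type gene Cacna1a, needed for fast release at most mature synapses, had a mean of 5.79 ± 0.574 at E14, 9.24 ± 0.822 at E18, 21.2 ± 1.11 at P7, and then 24.5 ± 1.50 (P35) and 22.7 ± 2.10 (P70) FPKM (SD, n = 10). Its 10 libraries of E14 (4.77 to 6.60), the 10 of E18 (8.03 to 10.8) and the 10 of P7 (18.7 to 22.7) did not overlap. Cacna1b, the N-type gene that serves release at young and peripheral synapses, reached its highest mean at P7, with 9.46 ± 2.41 at E14, 15.0 ± 1.41 at E18, 23.6 ± 2.64 at P7, and then 18.3 ± 1.50 (P35) and 16.3 ± 1.34 (P70). Cacna1e, whose R-type channel is found in dendritic spines and terminals, had 5.25 ± 1.19 at E14, 7.86 ± 1.27 at E18, 9.13 ± 0.969 at P7, and then 11.8 ± 1.08 (P35) and 11.7 ± 1.09 (P70). Unlike Cacna1b, it kept its highest means at P35 and P70.

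The 3 T-type genes moved apart. Cacna1g, the T-type gene of thalamic relay and deep cortical cells, stood at 8.91 ± 1.60 at E14, 11.1 ± 1.62 at E18, 29.4 ± 3.10 at P7, and then 15.3 ± 1.29 (P35) and 14.9 ± 1.75 (P70) FPKM (SD, n = 10). At P7 its wild-type libraries read 30.2, 23.5, 33.2, 31.0 and 31.6 and its Setd1a+/- libraries 24.6, 28.7, 30.5, 29.8 and 31.3, above every library of E18 (8.56 to 14.2) and of P35 (13.3 to 17.4). This P7 peak was present in both genotypes and also in the library that stood apart, which read 23.5.

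Cacna1h, a T-type gene with roles in sensory neurons and in thalamus, had its highest means before birth, with 21.8 ± 5.42 at E14, 23.4 ± 2.37 at E18, 18.5 ± 2.40 at P7, and then 10.2 ± 0.716 (P35) and 10.5 ± 0.888 (P70) FPKM. Its libraries at P7 (12.0 to 20.1) lay above those at P35 (9.02 to 11.2) without overlap. Cacna1i, whose channel inactivates slowly and is known for the thalamic reticular nucleus, started as the scarcest member, at 1.67 ± 0.506 at E14, 4.51 ± 0.469 at E18, 13.9 ± 2.79 at P7, and then 17.3 ± 1.04 (P35) and 17.1 ± 1.98 (P70) FPKM. In wild-type mice Cacna1i read 2.17, 2.50, 1.83, 1.43 and 0.923 at E14 and 18.4, 16.1, 17.8, 18.2 and 15.2 at P35. At P7 the 5 wild-type libraries of Cacna1i read 15.5, 6.25, 16.03, 14.9 and 15.0, where replicate 2, the library with choroid plexus markers, was far below the rest.

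**Figure D1:**
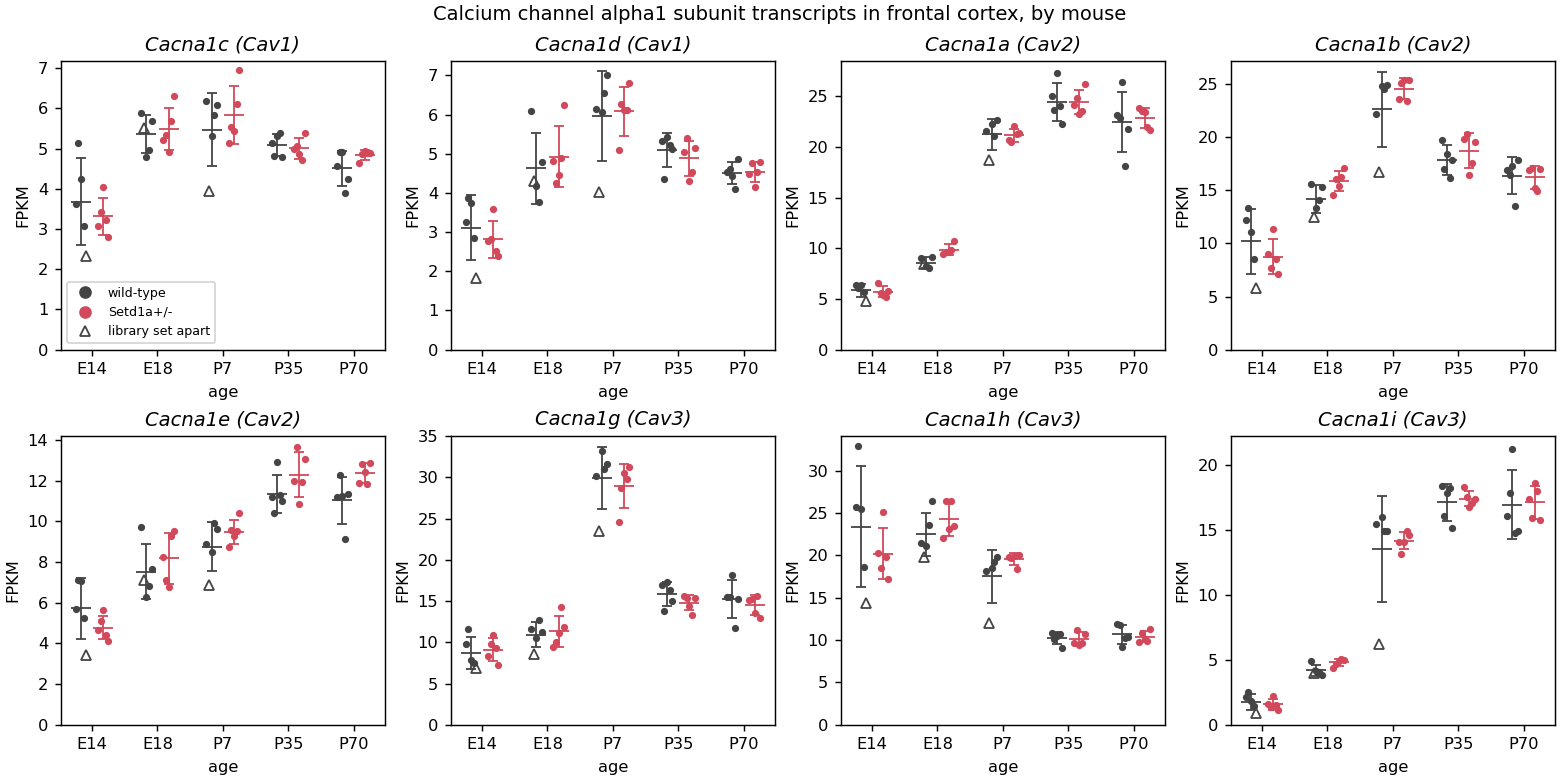
FPKM of the 8 alpha1 genes (y axis) by age (x axis), 1 point for each mouse, wild-type in grey and Setd1a+/- in red, with group mean and SD of 5 mice; open triangles are the 3 libraries that stood apart. Cacna1g peaked at P7 (23.5 to 33.2 FPKM), Cacna1h was lowest at P35 and P70, and Cacna1i rose from 0.923 to 2.50 FPKM at E14 to 15.2 to 18.4 at P35.

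The order of levels per base changed with age. In wild-type mice at E14, Cacna1h (23.4 FPKM, mean of 5) stood first, apart from Cacna1b (10.2) and Cacna1g (8.73), and Cacna1i (1.77) stood last, overlapping with Cacna1d. At E18 Cacna1h was again first (22.5) and Cacna1i (4.20) last, overlapping with Cacna1d (4.62). The P7 order began with Cacna1g (29.9), Cacna1b (22.6) and Cacna1a (21.3), and none of the 7 pairs of neighbours in it was apart, where replicate 2 was low throughout. In the Setd1a+/- mice of P7, 5 of the 7 pairs of neighbours were apart. From P35 on, Cacna1a led with 24.5 FPKM at P35 and 22.5 at P70, followed by Cacna1b, Cacna1i and Cacna1g at P35 and by Cacna1i, Cacna1b and Cacna1g at P70. Neighbours among these 3 overlapped in wild-type mice. Cacna1a stood apart from them in the wild-type mice of P35 and overlapped with Cacna1i in those of P70. Cacna1c and Cacna1d were last at both ages, with overlapping values of 4.51 to 5.09 and apart from the 6 genes above them.

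Between the members, likeness of course was measured as the root mean square difference of centred log2 group means over the 10 groups, where 0 is an identical course. Cacna1c and Cacna1d were the nearest pair (0.124), and Cacna1b was nearest to Cacna1d (0.130). The member farthest from any other was Cacna1h (0.600 from Cacna1c), ahead of Cacna1i (0.524 from Cacna1a). Since Cacna1b, Cacna1c and Cacna1d moved most alike, a promoter of each is shown, from 250 bases before to 50 after an annotated start, on the strand of the gene, from RefSeq (GRCm38.p6), with the letters GGGCGG on either strand in capitals. The entries are Cacna1b at chr2:24763103-24763402 (minus strand), Cacna1c at chr6:119108446-119108745 (minus strand) and Cacna1d at chr14:30353437-30353736 (minus strand).
Cacna1b: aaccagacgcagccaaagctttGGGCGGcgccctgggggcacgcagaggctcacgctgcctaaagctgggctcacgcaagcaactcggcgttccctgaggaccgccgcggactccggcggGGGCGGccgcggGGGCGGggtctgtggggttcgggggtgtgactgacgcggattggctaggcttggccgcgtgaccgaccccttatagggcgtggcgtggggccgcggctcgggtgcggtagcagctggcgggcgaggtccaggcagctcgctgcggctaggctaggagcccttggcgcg
Cacna1c: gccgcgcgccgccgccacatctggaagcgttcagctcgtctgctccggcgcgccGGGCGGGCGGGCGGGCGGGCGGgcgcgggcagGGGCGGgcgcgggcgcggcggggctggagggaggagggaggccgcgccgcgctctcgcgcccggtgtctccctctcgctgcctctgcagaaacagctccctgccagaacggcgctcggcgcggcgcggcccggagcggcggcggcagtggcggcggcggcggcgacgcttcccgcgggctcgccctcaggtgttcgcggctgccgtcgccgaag
Cacna1d: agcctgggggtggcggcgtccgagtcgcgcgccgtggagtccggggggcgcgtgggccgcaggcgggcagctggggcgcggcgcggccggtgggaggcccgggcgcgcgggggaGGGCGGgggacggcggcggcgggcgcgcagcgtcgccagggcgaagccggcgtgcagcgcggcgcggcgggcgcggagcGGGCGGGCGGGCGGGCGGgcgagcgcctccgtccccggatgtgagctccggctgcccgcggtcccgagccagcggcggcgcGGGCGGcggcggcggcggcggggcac
GGGCGG, the core of a GC box, occurs 3 times in the Cacna1b entry, 6 times in that of Cacna1c and 6 times in that of Cacna1d, counting overlapping copies, and 35.6% of 32817 promoters of this length hold it. The GC content of these entries was 72.3%, 81.3% and 87.3%, and the median over all promoters was 52.7%. Of the starts of Cacna1c and Cacna1d, those with copies of GGGCGG are shown. Its presence in these 2 entries was fixed by that choice, so the share over all promoters is no measure for it. The 300 bases at the other 2 starts of Cacna1c (51.3% GC each), the other start of Cacna1d (40.3%) and the only entries of Cacna1e (55.3%) and Cacna1i (62.7%) hold 0 copies. Also searched on both strands were CCAAT (in 37.4% of all promoters), TATAAA (13.6%), TGACGTCA (1.79%) and CANNTG (72.3%). Of these, Cacna1b holds CCAAT 1 time and CANNTG 1 time, Cacna1c CANNTG 2 times and Cacna1d CANNTG 1 time in the entries shown. The other start of Cacna1d holds TATAAA 3 times and CCAAT 1 time. Of the other 2 starts of Cacna1c, 1 holds CCAAT 1 time and CANNTG 1 time, and the last CANNTG 3 times. The Cacna1i entry holds CANNTG 2 times, and that of Cacna1e none of these. The table holds 8 entries for 5 of the 8 genes, with none for Cacna1a, Cacna1g and Cacna1h.

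The genes of all 16330 tested with the nearest course to each member were, for the L-type genes, Vldlr (0.0428) and Siah2 (0.0608) beside Cacna1c and Prkaa2 (0.0307) and Fam49b (0.0535) beside Cacna1d. Nearest to the Cav2 gene Cacna1a were Sorcs2 (0.0571) and Tpd52 (0.0627), to Cacna1b Capn5 (0.0608) and Abcg4 (0.0652) and to Cacna1e Gm1043 (0.0617) and Phactr3 (0.0653). For the T-type genes they were Oxct1 (0.0922) and Chml (0.0977) beside Cacna1g, Gm49318 (0.0620) and Zmynd19 (0.0666) beside Cacna1h and Coch (0.0612) and Mybph (0.0798) beside Cacna1i.

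Steps between ages were tested as log2 changes averaged over both genotypes, and a gene was called where edgeR's adjusted p was under 0.05. From E14 to E18, 7 of 8 members were called higher, where 35.98% of all tested genes were called higher and 37.43% lower, and 0 members were called lower. The members' median log2 change was 0.65 and that of all genes -0.0025. The largest rise was that of Cacna1i, at 1.43 (SE 0.125, adjusted p 6.86e-14). For 2 of 8 members, Cacna1i and Cacna1a, the 10 libraries of E18 all lay above the 10 of E14, as did those of 13.27% of all tested genes. The 6 members called besides Cacna1i rose by 0.32 (Cacna1g) to 0.69 (Cacna1d) on the log2 scale. Cacna1h, at 0.10 (SE 0.0891, adjusted p 0.299), was not called. It was called without wild-type replicate 2 at E14, where it read 32.9 FPKM (0.18, adjusted p 0.0495), but not without wild-type replicate 5 (0.035, adjusted p 0.695) or without the 3 libraries that stood apart (0.057, adjusted p 0.463). In wild-type mice alone its change was -0.059 and in Setd1a+/- mice 0.26.

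From E18 to P7, when cortical synapses begin to form in number, 6 of 8 members were called higher and 1 lower, with 37.86% of all tested genes called higher and 38.21% lower. Cacna1i changed by 1.62 (SE 0.122, adjusted p 4.48e-16), Cacna1g by 1.403 (SE 0.0866, adjusted p 5.83e-19) and Cacna1a by 1.20 (SE 0.0511, adjusted p 1.25e-24), and for these 3 of 8 genes the libraries of P7 lay above those of E18 without overlap, as for 18.04% of all tested genes. Cacna1b rose by 0.65 and Cacna1d by 0.33, with overlapping libraries. Cacna1h fell by 0.34, and Cacna1c, at 0.059 (SE 0.0851, adjusted p 0.536), was not called. The smallest call, Cacna1e at 0.22 (SE 0.0880, adjusted p 0.0244), was lost when Setd1a+/- replicate 2 or 3 or wild-type replicate 3 or 4 of E18, or Setd1a+/- replicate 5 or wild-type replicate 4 of P7, was left out (0.18 to 0.19, adjusted p 0.0509 to 0.0652), with RNA integrity as a covariate (0.20, adjusted p 0.0522), with library size alone (0.16, adjusted p 0.0719), and without the 6 libraries (0.14, adjusted p 0.102).

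The step from P7 to P35 split the family. Called higher were 3 of 8 members, beside 37.97% of all tested genes, and called lower 4 of 8, beside 38.13%. The T-type genes Cacna1g, at -0.94 (SE 0.0856, adjusted p 1.66e-13), and Cacna1h, at -0.86 (SE 0.0902, adjusted p 1.02e-11), fell in each genotype, and the libraries of these 2 at P35 lay below all those of P7, as for 23.29% of all tested genes. Cacna1b fell by 0.37 and Cacna1d by 0.27. Higher were Cacna1e at 0.37 (SE 0.0880, adjusted p 0.000189), Cacna1a at 0.20 (SE 0.0503, adjusted p 0.000335) and Cacna1i at 0.32 (SE 0.118, adjusted p 0.0139). The rise of Cacna1i was smaller without the 3 libraries that stood apart, at 0.22 (SE 0.0787, adjusted p 0.0102), and not called with RNA integrity as a covariate (0.26, adjusted p 0.0748). Cacna1c, at -0.16 (SE 0.0852, adjusted p 0.0780), was not called. It was called without wild-type replicate 2 of E14 (adjusted p 0.0498), wild-type replicate 5 of E14 (0.0404) or wild-type replicate 2 of P7 (0.0177), and without all 3 libraries that stood apart (-0.22, adjusted p 0.0038), which makes 5 of 8 called lower, beside 38.51% of all tested genes.

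Between P35 and P70, 0 of 8 members were called by edgeR, with 9.74% of all tested genes called. DESeq2, limma-voom and limma-trend also called 0. An unadjusted p under 0.05 was found for 1 of 8, Cacna1a (-0.11, unadjusted p 0.0383), and for 23.89% of all tested genes. Over the whole course from E14 to P70, 7 of 8 members were called higher, with 44.70% of all tested genes, and 1 lower, with 45.10%. Cacna1i rose most, at 3.36 (SE 0.132, adjusted p 3.65e-27), then Cacna1a at 1.97 (SE 0.0523, adjusted p 8.59e-34), and Cacna1h was the member called lower, at -1.05 (SE 0.0904, adjusted p 1.33e-14). Most tested genes were called in 1 direction or the other in each of the first 3 steps, so that 7 of 8 members were called in each is near the background, and the members are told apart by sign and size.

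**Figure D2:**
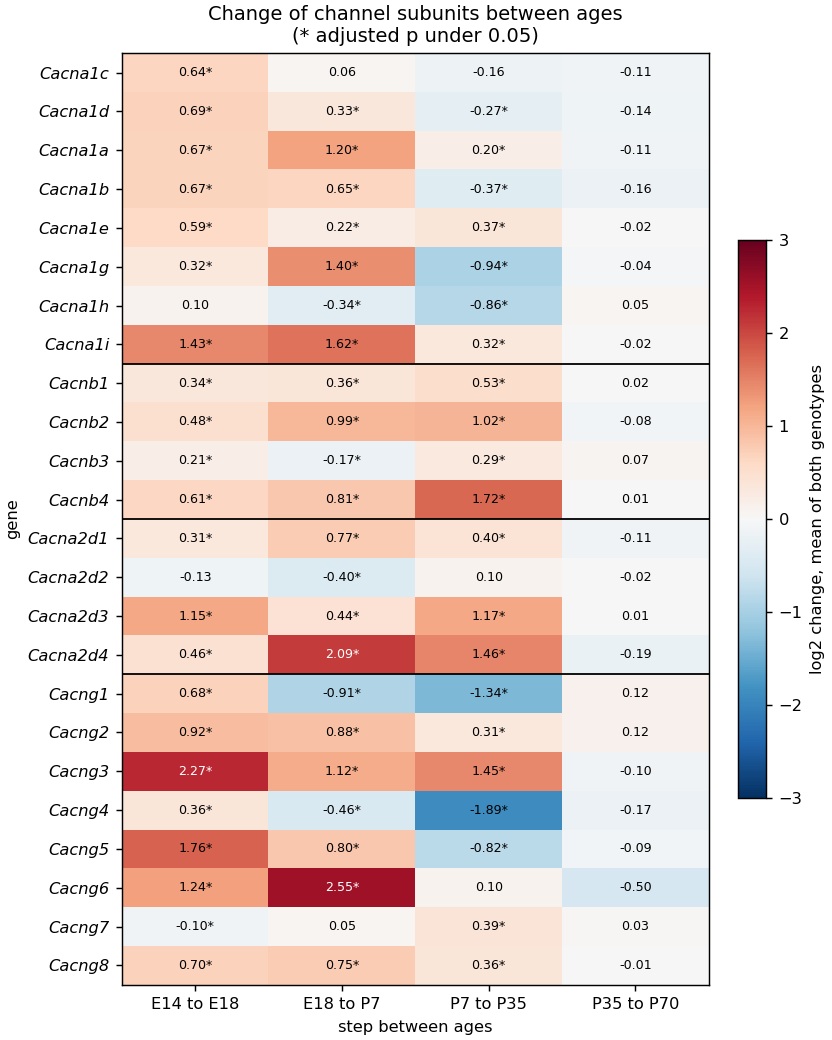
Log2 change (colour and printed value, mean of both genotypes) of the alpha1, beta, alpha2delta and gamma subunit genes (y axis) for each step between ages (x axis), with asterisks where the adjusted p was under 0.05. From P7 to P35, Cacna1g (-0.94) and Cacna1h (-0.86) fell while Cacna1e (0.37), Cacnb2 (1.02) and Cacnb4 (1.72) rose.

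The makeup of the family was described by the share of each gene in the summed FPKM of the 8, with no test. In wild-type mice the sum was 62.4 ± 16.2 FPKM at E14, 77.9 ± 6.45 at E18 and 125 ± 18.7 at P7, followed by 107 ± 6.87 (P35) and 101.8 ± 10.1 (P70; SD, n = 5). Replicate 2 held 92.02 FPKM at P7, and the other 4 wild-type libraries of that age 128.8 to 136.6. The share of Cacna1h went from 37.1% ± 1.87 at E14 through 28.8% ± 2.25, 13.9% ± 0.583 and 9.55% ± 0.512 to 10.6% ± 1.51 at P70. That of Cacna1i went from 2.78% ± 0.339 to 16.6% ± 1.56, and that of Cacna1a from 9.73% ± 1.69 to 22.0% ± 0.879. Cacna1g held 24.0% ± 1.03 at P7 and 14.8% ± 0.585 at P35. As classes, the T-type genes went from 54.1% ± 2.14 at E14 to 42.1% ± 1.12 at P70, the Cav2 genes from 35.05% ± 1.83 to 49.0% ± 1.11 and the L-type genes from 10.8% ± 0.711 to 8.88% ± 0.391. At P35 the T-type share was made up of Cacna1i (15.99% ± 0.7103), Cacna1g and Cacna1h, in falling order. In Setd1a+/- mice the T-type share was 54.8% ± 1.26 at E14 and 40.9% ± 1.28 at P70, and the largest gap to wild-type mice for a single gene was that of Cacna1g at E14, 16.2% ± 1.32 against 14.2% ± 1.87, with overlapping libraries. The libraries of the genotypes overlapped in all but 1 of 40 pairs of gene and age, and 2.23% of all tested genes were apart by level at P7. In that pair Cacna1g at P7 held 23.1 to 25.5% in wild-type and 20.2 to 23.0% in Setd1a+/- libraries, a gap that was not tested. Shares of raw counts, not divided by length, give the long genes more weight. By counts, the wild-type T-type share went from 42.8% at E14 to 32.5% at P70, that of the Cav2 genes from 40.9% to 54.8% and that of the L-type genes from 16.3% to 12.8%. Cacna1e then held 21.3% at P70, beside 21.1% for Cacna1a. The shares of Cacna1g at P7 overlapped between genotypes by counts. Wild-type replicate 5 held 19.187% there and Setd1a+/- replicate 3 held 19.193%.

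**Figure D3:**
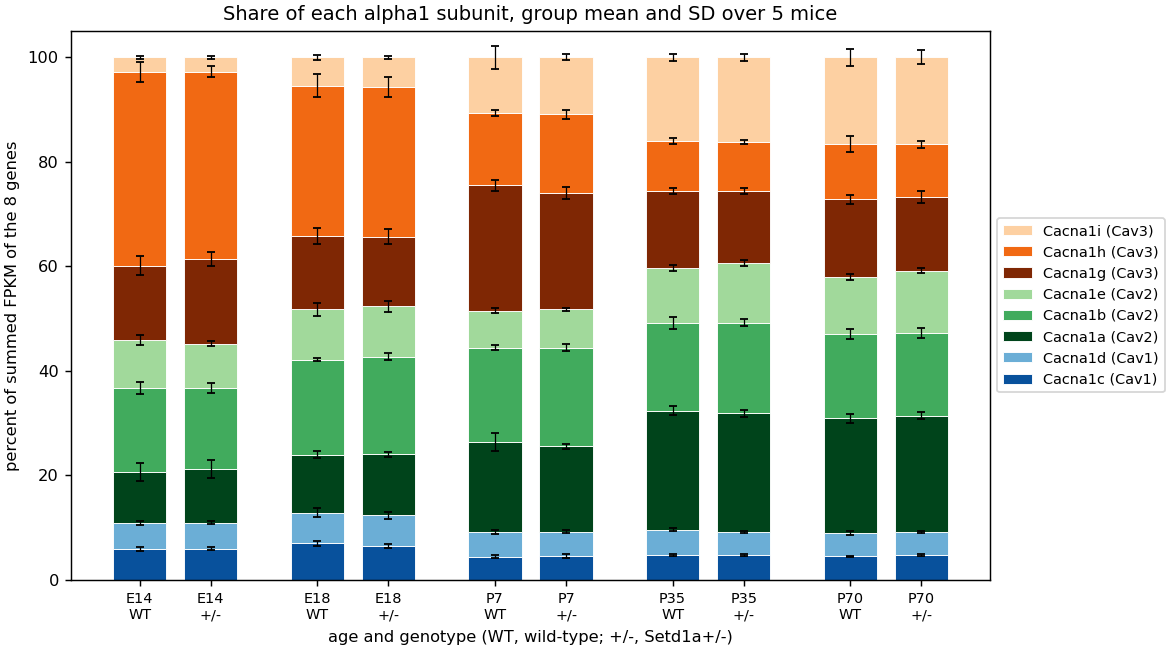
Percent of the summed FPKM of the 8 alpha1 genes (y axis) in each age and genotype (x axis), stacked group means with the SD over 5 mice at the top of each segment. In wild-type mice, Cacna1h went from 37.1% at E14 to 10.6% at P70, Cacna1i from 2.78% to 16.6% and Cacna1a from 9.73% to 22.0%.

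Over all ages, with age as a covariate, 0 of 8 members were called between genotypes by edgeR, against 4.43% of all tested genes. No member had an unadjusted p under 0.05, where 14.45% of all tested genes did, and DESeq2, limma-voom and limma-trend called 0. The log2 change of Setd1a+/- against wild-type ran from -0.020 (Cacna1g) to 0.052 (Cacna1e), with adjusted p of 0.714 to 0.997 and SEs of 0.0328 to 0.0748. Without the 3 libraries that stood apart 0 were called, against 4.24% of all tested genes. The changes then ran from -0.069 (Cacna1d) to 0.012 (Cacna1a). Without the 6 libraries 0 were called, against 724 of 16330 tested genes, at -0.10 (Cacna1d) to -0.0060 (Cacna1a). In that edgeR fit 1 of 8 members, Cacna1d, had an unadjusted p under 0.05 (0.0408), as did 2538 of 16330 tested genes. The joint test of a different genotype effect between ages called 0 members and 0% of all tested genes, with 0 members and 6.72% of all tested genes at an unadjusted p under 0.05, the lowest of the members being 0.118 (Cacna1e). The other 3 tools called 0 members in it as well. A p above the threshold does not show that the members' levels were alike.

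At E14 the wild-type libraries read 5.71, 7.11, 7.08, 5.26 and 3.45 FPKM for Cacna1e and the Setd1a+/- libraries 4.66, 5.08, 5.62, 4.40 and 4.13. For Cacna1b the wild-type values were 12.2, 13.3, 11.1, 8.55 and 5.80 and the Setd1a+/- values 9.03, 7.67, 11.4, 8.51 and 7.15. Cacna1h read 25.7, 32.9, 25.5, 18.6 and 14.4 in wild-type libraries, and 20.3, 18.5, 25.1, 19.8 and 17.2 in Setd1a+/- libraries. Wild-type replicate 5, the library with Xist reads, was the lowest of all 10 for each of these 3 genes, wild-type replicate 2 was the highest, and the genotypes overlapped with and without replicate 5. With all libraries, 0 of 8 members were called at E14, against 0.129% of all tested genes; DESeq2 called 0 and both limma tests called 0. The unadjusted p of edgeR was under 0.05 for 1 of 8, Cacna1e at -0.26 (adjusted p 0.405), and for 11.60% of all tested genes. The log2 change was negative for 7 of 8, with a median of -0.16, and the median of all genes was -0.029.

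Without wild-type replicate 5, 2 of 8 members were called lower in Setd1a+/- mice at E14, where 2.22% of all tested genes were called lower. They were the R-type gene Cacna1e, at -0.40 (SE 0.110, adjusted p 0.0345), and the N-type gene Cacna1b, at -0.37 (SE 0.108, adjusted p 0.0436). Cacna1h, at -0.35 (SE 0.114, adjusted p 0.0645), was not called, nor were the other 5, which ran from -0.34 (Cacna1i) to -0.017 (Cacna1g). Replicate 5 was the lowest wild-type library of E14 for all 8 members, so leaving it out raised each wild-type mean. The share of all tested genes is therefore no neutral measure for these calls. In 49 of the 50 fits without 1 library, the number of members called at E14 stayed at 0. Without the 3 libraries that stood apart, 3 of 8 were called lower, as were 4.00% of all tested genes. They were Cacna1e, at -0.40 (SE 0.106, adjusted p 0.0227), Cacna1b, at -0.37 (SE 0.0974, adjusted p 0.0227), and Cacna1h, at -0.35 (SE 0.0984, adjusted p 0.0294). The joint test across ages then called 0 members, against 0.398% of all tested genes, and 5 of 8 had an unadjusted p under 0.05, beside 14.64% of all tested genes, so a genotype effect at E14 that differs from those of other ages was not shown for any member. Without the 6 libraries, 1 of 8 was called lower at E14, Cacna1e, at -0.42 (SE 0.105, adjusted p 0.0406), as were 0.686% of all tested genes. Cacna1b, at -0.32 (SE 0.102, adjusted p 0.0984), and Cacna1h, at -0.31 (SE 0.105, adjusted p 0.115), were then not called, and the joint test called 0 members. The calls of Cacna1b and Cacna1h at E14 thus depend on which libraries are kept, and that of Cacna1e on leaving out wild-type replicate 5.

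Neuronal and progenitor markers moved with wild-type replicate 5. The 6 pan-neuronal markers, of which Tubb3 was the most abundant and 0 were undetected, summed to 1059.8, 1077, 876, 904 and 744 FPKM in the wild-type libraries of E14 and to 901, 843, 923, 847 and 779.8 in the Setd1a+/- libraries. The 7 progenitor markers, led by Sox2 and with 0 undetected, summed to 309, 252, 310.0, 329 and 368 in wild-type libraries, and to 359, 274, 263, 329 and 335 in Setd1a+/- libraries. Wild-type replicate 5 was the lowest library in pan-neuronal and the highest in progenitor markers, and the Setd1a+/- library lowest for 7 of the 8 alpha1 genes, replicate 5, was also the lowest of its group in pan-neuronal markers. Without the 3 libraries, 2 of 6 pan-neuronal markers were called lower at E14 (Map2, Tubb3), where 4.00% of all tested genes were called lower. Called higher were 4 of 4 endothelial markers and 3.13% of all tested genes, with summed endothelial levels of 31.2, 32.8, 32.8, 28.5 and 39.1 in wild-type and 29.6, 179, 28.7, 57.0 and 26.8 FPKM in Setd1a+/- libraries. The most abundant endothelial marker was Cldn5, and 0 of the 4 were undetected. Without the 6 libraries, 0 pan-neuronal and 0 endothelial markers were called at E14. The 5 erythroid markers, led by Hbb-bs, summed to 413 to 1320 FPKM (median 476) in wild-type libraries of E14. In Setd1a+/- libraries they summed to 328 to 1222 (median 1158). With all libraries, the median log2 change at E14 was -0.17 for 7 GABAergic, 0.26 for 5 microglia and 0.016 for 7 excitatory neuron markers. In these 3 lists 0 genes were called, beside 0.129% of all tested genes. The part of the neuronal, progenitor, endothelial, erythroid or other makeup in the alpha1 values at E14 was not tested.

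At E18 the log2 change was positive for 8 of 8 members, and 0 were called by edgeR, against 0.110% of all tested genes. Cacna1a read 9.08, 8.48, 8.25, 8.03 and 9.17 FPKM in the wild-type and 9.43, 9.69, 9.62, 9.84 and 10.8 in the Setd1a+/- libraries. All 5 Setd1a+/- values were above all 5 wild-type values, the only such case among the members at this age, where 2.22% of all tested genes had groups that did not overlap. The log2 change of Cacna1a was 0.20 (SE 0.0715), with an adjusted p of 0.265, and it was the 1 member of 8 with an unadjusted p under 0.05, beside 11.37% of all tested genes. Without the 3 libraries it was 0.19 (adjusted p 0.139), and 7 of 8 members were positive, Cacna1g being at -0.021. Without the 6, with 2 wild-type libraries left, 4 of 8 were positive and 4 negative (-0.14 to 0.14), and Cacna1a was at 0.11 (SE 0.0850, adjusted p 0.794). With RNA integrity as a covariate all 8 stayed positive (0.0069 to 0.19) and 0 were called, Cacna1a having an adjusted p of 0.763, while the share of all tested genes at an unadjusted p under 0.05 went to 5.94%. The other 3 tools called 0 members. With all libraries in edgeR, the remaining changes ran from 0.034 (Cacna1c) to 0.20 (Cacna1i). The median over the 8 was 0.12, beside 0.016 for all genes. It was 0.124 for genes of presynaptic release, 0.125 for excitatory, 0.132 for GABAergic and 0.097 for pan-neuronal markers. For astrocyte markers it was -0.034 and for progenitor markers -0.12. A positive median at E18 was thus not particular to the alpha1 genes. Cacna1i read 4.93, 4.01, 4.15, 4.07 and 3.84 in wild-type and 4.40, 4.69, 4.90, 5.10 and 4.99 in Setd1a+/- mice, with replicate 1 of the wild-type mice inside the Setd1a+/- range.

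Sums of tissue markers also varied among the E18 libraries. The 4 choroid plexus markers, led by Ttr, summed to 1.48, 1.41, 189.8, 152 and 5.80 FPKM in wild-type libraries, and to 1.62, 0.466, 1.90, 1.91 and 1.22 in Setd1a+/- libraries. The 4 endothelial markers, led by Cldn5, summed to 79.1, 49.0, 129, 93.9 and 50.4 in wild-type libraries, and to 42.8, 39.04, 45.6, 49.2 and 43.2 in Setd1a+/- libraries. The 6 pan-neuronal markers, led by Tubb3, summed to 1182, 1348, 1225, 1193 and 1239 in wild-type libraries, and to 1223, 1500.4, 1321, 1232 and 1384 in Setd1a+/- libraries. In each list 0 genes were undetected and 0 were called at E18 with all libraries, and their part in the alpha1 values of this age was not tested.

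After birth, edgeR called 0 members at P7 (0.735% of all tested genes), 0 at P35 (0%) and 0 at P70 (0.233%), and DESeq2 and both limma tests called 0. No member had an unadjusted p under 0.05 at these ages, where 8.86%, 3.37% and 6.55% of all tested genes did. The groups of the 2 genotypes overlapped for all 8 members at E14, P7, P35 and P70, where 0.784%, 2.23%, 2.25% and 1.79% of all tested genes had groups apart. Log2 changes ran from -0.046 (Cacna1g) to 0.16 (Cacna1h) at P7. For Cacna1h the P7 wild-type libraries read 18.1, 12.0, 18.5, 19.2 and 19.8 FPKM and the Setd1a+/- libraries 19.8, 19.7, 19.9, 18.3 and 20.1. Without the low replicate 2 the change of Cacna1h was 0.051, and those of the other members ran from -0.12 (Cacna1g) to 0.042 (Cacna1e). At P35 they ran from -0.10 (Cacna1g) to 0.11 (Cacna1e), and at P70 from -0.067 (Cacna1g) to 0.16 (Cacna1e). With all libraries Cacna1e was positive at each age from E18 on, reading 11.2, 12.3, 11.3, 9.14 and 11.4 in wild-type and 11.9, 12.8, 12.4, 11.9 and 12.9 in Setd1a+/- mice at P70. Without the 6 libraries its change at E18 turned from 0.12 to -0.088. At P7, P35 and P70 it stayed positive in that fit (0.042 to 0.16).

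**Figure D4:**
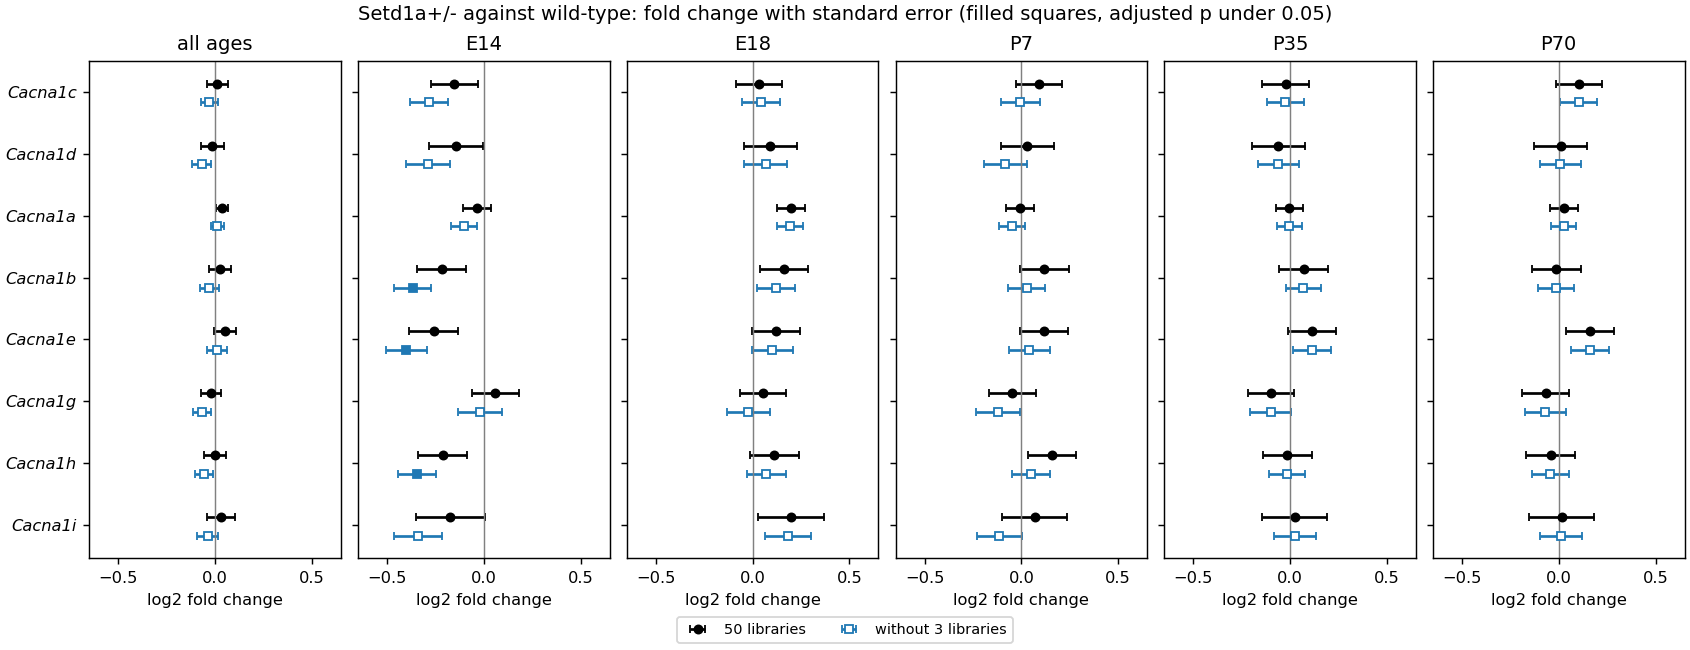
Log2 fold change of Setd1a+/- against wild-type mice with its standard error (x axis) for the 8 alpha1 genes (y axis), over all ages and at each age. Black points use 50 libraries, and blue squares leave out the 3 libraries that stood apart, filled where the adjusted p was under 0.05, as for Cacna1b (-0.37), Cacna1e (-0.40) and Cacna1h (-0.35) at E14.

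The alpha1 subunits of Cav1 and Cav2 channels bind beta subunits inside the cell, which bring them to the membrane and tune their gating, and alpha2delta subunits outside it, which raise their number at the surface. For the lists of genes that follow, the share of all tested genes called in each of the 3 steps to P35 was 35.98% to 37.97% up and 37.43% to 38.21% down. The calls among the 4 beta subunit genes were 4 up and 0 down from E14 to E18, 3 up and 1 down from E18 to P7 and 4 up and 0 down from P7 to P35. Their largest changes from E14 to P70 were those of Cacnb4 (3.15, SE 0.0665), Cacnb2 (2.41, SE 0.0783) and Cacnb1 (1.25, SE 0.0672), with mean levels at E14 and P70 of 4.03 and 35.8 FPKM for Cacnb4, 0.661 and 3.52 for Cacnb2 and 17.6 and 41.8 for Cacnb1. All 4 beta genes rose from P7 to P35, when Cacna1b, Cacna1d, Cacna1g and Cacna1h fell. Among the 4 alpha2delta genes the calls were 3 up and 0 down from E14 to E18, 3 up and 1 down from E18 to P7 and 3 up and 0 down from P7 to P35. The largest changes from E14 to P70 were those of Cacna2d4 (3.82, SE 0.170), Cacna2d3 (2.77, SE 0.153) and Cacna2d1 (1.37, SE 0.0561). Cacna2d4 stayed at 0.355 FPKM at P70, so Cacna2d1 (20.1 FPKM) and Cacna2d3 (13.5) were far more abundant.

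The 8 gamma subunit genes include several that serve AMPA receptors rather than calcium channels. Their calls were 7 up and 1 down from E14 to E18, 5 up and 2 down from E18 to P7 and 4 up and 3 down from P7 to P35, and the largest changes from E14 to P70 were those of Cacng3 (4.73, SE 0.151), Cacng6 (3.39, SE 0.249) and Cacng2 (2.23, SE 0.110). The muscle and retina alpha1 genes Cacna1s and Cacna1f were barely detected, with mean levels of at most 0.206 FPKM at any age, and their log2 changes from E14 to P70 were 1.401 and 1.46. For 14 regulators and partners, such as the Rims and Rimbp2 proteins that tether Cav2 channels at release sites, the calls were 10 up and 1 down from E14 to E18, 11 up and 2 down from E18 to P7 and 9 up and 3 down from P7 to P35. The largest changes were those of Stac2 (3.54, SE 0.0995), Rims1 (3.33, SE 0.0955) and Rimbp2 (3.15, SE 0.106). For 10 genes of presynaptic release, which Cav2 channels drive, they were 10 up and 0 down from E14 to E18, 10 up and 0 down from E18 to P7 and 9 up and 0 down from P7 to P35, led by Snap25 (4.97, SE 0.0784), Syt1 (3.77, SE 0.0831) and Cplx1 (3.61, SE 0.0639). None of the beta, alpha2delta, gamma, Cacna1s and Cacna1f genes or release genes was called by genotype over all ages.

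Of the 14 partners 1, Stac2, was called by genotype over all ages, where 4.43% of all tested genes were, so 1 call is near the background. Stac2 is an adaptor protein that binds L-type channels and slows their inactivation. It read 3.74, 4.97, 4.34, 3.13 and 2.24 FPKM in wild-type and 2.76, 2.89, 3.40, 2.54 and 2.68 in Setd1a+/- mice at E14. At P7 it read 4.57, 4.40, 3.43, 4.68 and 4.31 in wild-type mice, and 3.45, 3.52, 2.84, 3.58 and 3.46 in Setd1a+/- mice. At P35 the values were 33.8, 32.4, 33.6, 33.8 and 32.0 in wild-type mice, and 34.2, 28.3, 31.4, 30.9 and 29.3 in Setd1a+/- mice, and the genotypes overlapped at every age. Over all ages its log2 change was -0.20 (SE 0.0588, adjusted p 0.0339). At single ages the change was -0.37, -0.027, -0.34, -0.11 and -0.20 from E14 to P70, and with all libraries it was called at none of them. The call over all ages was lost with limma-voom (-0.16, adjusted p 0.0685), at an adjusted p under 0.01, and when any of 10 single libraries was left out (adjusted p of up to 0.0614). Those were Setd1a+/- replicates 1 and 4 and wild-type replicates 2 and 3 of E14, wild-type replicates 2 and 5 of E18, wild-type replicates 1 and 4 and Setd1a+/- replicate 3 of P7, and wild-type replicate 3 of P70.

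The 8 genes lie on 8 chromosomes (GRCm38), in the count tables at chr8:84338639-84640246 (Cacna1a), chr2:24603887-24763152 (Cacna1b), chr6:118587240-119196890 (Cacna1c), chr14:30039939-30491455 (Cacna1d), chr1:154390731-154884501 (Cacna1e), chr11:94408391-94474198 (Cacna1g), chr17:25374285-25433783 (Cacna1h) and chr15:80287238-80398279 (Cacna1i). Their exonic length in the tables was 9763 bases (Cacna1h) to 25228 bases (Cacna1e). Reads were counted without strand, and 4.85% of the exonic bases of Cacna1d, 3.53% of those of Cacna1a and 1.62% of those of Cacna1h overlap another gene, and reads there were counted for each gene they overlap. The exons of the other 5 overlap none. Of the other subunit genes named, the share was 19.98% for Cacna1s, 15.99% for Cacnb4, 7.32% for Cacnb2, 5.86% for Cacng2 and 1.77% for Cacnb1. The exons of Cacna1f, Cacna2d1, Cacna2d3, Cacna2d4, Cacng3 and Cacng6 overlap none. Isoforms of a gene are summed in the counts.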

How the data were processed

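The authors sequenced poly-A RNA of each mouse in a single batch, trimmed reads with Trimmomatic, aligned them with STAR to GRCm38 and deposited whole-number counts per gene (featureCounts 1.4.6-p2, Ensembl 102), with overlapping genes counted and strand ignored. Counts were joined to symbols and gene types through an annotation holding 55141 of the 55487 genes. Groups came from the labels. Counts of 16330 protein-coding genes that passed filterByExpr over the 10 groups were tested with edgeR 4.0.16 (TMM scaling, quasi-likelihood F-test, two-sided) and adjusted over all genes by Benjamini-Hochberg. Genotype over all ages was fitted with age as a covariate, and single ages, steps and the joint interaction in 1 fit of the 10 groups. FPKM divided counts by the scaled library size and exonic length. DESeq2 1.42.0, limma 3.58.1, other scalings and filters, RNA integrity, gene length, a replicate block and leaving out libraries were alternatives. The steps (R 4.3.3, Python 3.11.15) were tested on simulated counts. Named were all members, listed genes called by genotype, the 3 of each list with the largest change from E14 to P70, and the 2 genes nearest to each member. The members and lists were chosen with earlier results of these data known.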

Additional observations from a re-analysis of the deposited data

Results flagged for a closer look

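In 6 of 80 groups of 5 mice, the library at 1 end of the group lay apart by more than 0.71 of the group's range, a gap that chance gives in about 1 in 20 groups. Both of the alpha1 genes so marked at P7 in wild-type mice were low in replicate 2, the library with choroid plexus and hindbrain markers: Cacna1h read 12.0 FPKM there against 18.1 to 19.8 in the other 4, and Cacna1i 6.25 against 14.9 to 16.03. In the Setd1a+/- mice of P7, replicate 4 read 18.3 FPKM for Cacna1h, against 19.7 to 20.1. Wild-type replicate 1 at E18 was high for Cacna1i, at 4.93 FPKM against 3.84 to 4.15. Cacna1c read 4.64 FPKM in Setd1a+/- replicate 1 of P70, against 4.86 to 4.93, and Cacna1d 4.36 in wild-type replicate 2 of P35, against 5.12 to 5.43. The cause of these gaps was not tested.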

How the results depend on the processing

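Besides edgeR as described, 14 alternatives, of which leaving out 6 libraries was chosen after seeing the data, and 50 fits without 1 library each were run. Leaving out the 3 libraries, also among the 14, was planned with earlier results of these data known. Of the members' log2 changes, 1073 kept their side of the threshold under the alternatives, 8 became called and 7 lost their call, against 3988, 6 and 6 with 1 library left out. The sign changed in 37 values under the alternatives and in 76 with 1 library left out, of which 0 were called in either fit. Without the 3 libraries, Cacna1b over all ages went from 0.025 to -0.030, and at P7 Cacna1i from 0.069 to -0.11 and Cacna1d from 0.030 to -0.082. The number of members called by genotype at E14, 0, became 3 without the 3 libraries that stood apart and 1 without the 6, and ran from 0 to 2 with 1 library left out. It stayed at 0 for the other genotype tests in every fit. Counts for the steps ran from 7 to 8 (higher, E14 to E18), 5 to 6 (higher, E18 to P7), 2 to 3 (higher, P7 to P35) and 3 to 5 (lower, P7 to P35). With RNA integrity as a covariate, Cacna1e from E18 to P7 (0.20, adjusted p 0.0522) and Cacna1i from P7 to P35 (0.26, adjusted p 0.0748) lost their calls, and Cacna1e also did with library size alone (0.16, adjusted p 0.0719) and without the 6 libraries (0.14, adjusted p 0.102). At an adjusted p under 0.01 both were lost, and Cacna1d from P7 to P35. Cacna1c from P7 to P35 gained a call with length correction (adjusted p 0.0283), with library size alone (0.0052) and without the 6 libraries (0.0051). Over all tested genes, calls by genotype at E14 were 21 with edgeR, 114 with DESeq2 and 3 with library size alone, at E18 18, 111 and 18, and at P7 120, 128 and 135, with 16 for limma-voom, 20 with the replicate block and 9 without the 3 libraries. At E18, 1 gene was called with RNA integrity as a covariate, 37 with the block, and without the 3 libraries 1.18% of all tested genes were called (88 higher, 104 lower). At P70, edgeR called 38 and DESeq2 77, with 60 for edgeR without the 3 libraries, and for the interaction 0 and 21. Without the 6, calls were 152 at E14, 21 at E18, 11 at P7 and 55 at P70. With 1 library left out they ran from 1 to 740 at E14, 7 to 150 at E18, 7 to 211 at P7, 0 to 5 at P35, 8 to 104 at P70 and 653 to 774 over all ages. With the replicate number as a block, 0 members were called by genotype at any age, and 785 of all tested genes over all ages. Of 25 pairs with the same number, 9 had a correlation above 0.1 (range -0.204 to 0.460). These values do not settle whether the numbers pair the mice. The study's methods describe littermates at the postnatal ages, and litter was not part of any fit. By counts rather than FPKM, 103 of 110 share values moved by over 1 SD, since the genes differ in length. Scaled by library size only, 27 of 80 mean levels moved by over 1 SD. For the other changes, the cause was not tested.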
